A study of Nematostella vectensis with 84 samples.

Results

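The 30 libraries described here come from adults of the starlet sea anemone, Nematostella vectensis; the tissue was the tentacles with the oral disc around the mouth. All carry the cytochalasin D treatment label and were sampled at 5 time points of recovery, T0 to T4. They are 30 of the 84 libraries of a series that also used calcium-free KSW and streptomycin. Every library of a time point carries a letter from A to F, and the 15 libraries lettered A, B or C were set against the 15 lettered D, E or F. By the submitters' design note each time point had 2 conditions of 3 replicates, but nothing in the sources used here says which letters belong to which condition. All 30 libraries share the treatment label, so neither letter set can be called untreated, and every direction below is only that of A-C relative to D-F. Per the labels recovery was sampled hourly, and no dose is given. The labels leave it unsaid which libraries, if any, share an animal, and each p-value therefore rests on differences among libraries that may be technical.

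Cytochalasin D binds the growing ends of actin filaments and stops their extension. The tentacles of sea anemones bear hair bundle mechanoreceptors, whose stereocilia are filled with actin, and these receptors help to tune the discharge of stinging capsules. Agents that break up such bundles have been used in sea anemones to follow their repair. The gene models carry numbered NVE identifiers with no names, and 0 of the 23510 matched the reference gene table, so no function can be given to a gene, no tissue marker could be checked and no sequence could be assigned.

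The libraries within a time point were paired by letter: A was set beside D, B beside E, C beside F. After the mean of each time point and letter set was removed, the correlation across the 2267 genes above median abundance ran from 0.125 to 0.568 for the 15 pairs (median 0.395). For the 30 combinations of unlike letters at the same time point it ran from -0.417 to 0.0557 (median -0.176). Removing the mean of a letter set makes its deviations cancel, so higher values within pairs bring lower ones for unlike letters. The low values for unlike letters are thus not a separate result. All 15 A-C libraries correlated best with their own partner. With only the mean of the time point removed, so that the difference between the letter sets stayed in, the pairs ran from -0.246 to 0.294 (median 0.00264; 3 of 15 above 0.1) and unlike letters from -0.555 to -0.103 (median -0.409). The 15 pairs were used as blocks, so that each difference is measured within a pair. The labels do not say that partners share an animal, a day or any other source.

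Total counts ran from 272537 to 584632 per library with a median of 346511, so that 1 read equals between 1.71 and 3.67 CPM, the count scaled by library size that is used below. The A-C libraries averaged 369597 ± 80323 reads and the D-F libraries 341080 ± 41060 (SD, n = 15), a difference within the spread of pairs (exact paired permutation test, two-sided, 10 of 15 pairs higher in A-C, adjusted p = 0.140). The letter sets differed in how evenly reads were spread over genes. With every library thinned to 272537 reads, 13702 ± 436 genes were detected in A-C and 13312 ± 293 in D-F (SD, n = 15). A-C was higher in 14 of 15 pairs (exact paired permutation test, adjusted p = 0.00122). The 10 most counted genes took 26.2% ± 3.89 of reads in A-C and 28.9% ± 2.30 in D-F (SD, n = 15; A-C higher in 4 of 15 pairs, exact paired permutation test, adjusted p = 0.00794). These p-values were adjusted over 6 library values. T2 B stood apart from the other 14 A-C libraries, with the highest total count (584632) and the lowest share in the 10 most counted genes (17.2%). The part of this evenness in the gene differences below was not tested, beyond the thinned and rescaled fits named there.

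**Figure D1:**
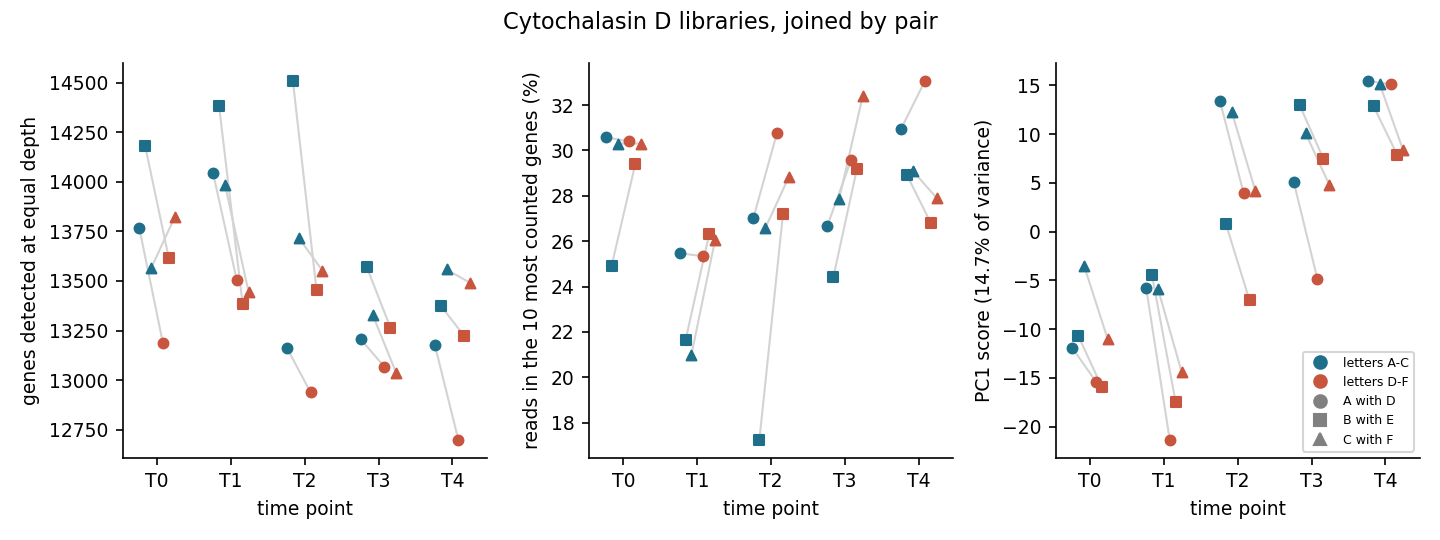
Genes detected at equal depth, the percentage of reads in the 10 most counted genes and the score of the first principal component (PC1) in each of the 30 cytochalasin D libraries, by time point, with grey lines joining the 2 libraries of a pair. A-C lay above D-F in 14 of 15 pairs for genes detected at equal depth and in 15 of 15 for the component.

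Within pairs the letter sets also differed on the main axes of expression, although their ranges of scores overlapped. The first principal component of log2 CPM held 14.7% of the variance of the 2000 most variable genes and the second 9.96%. With the sign of each component set so that the A-C mean is the higher one, A-C scored higher than D-F in 15 of 15 pairs on both (exact paired permutation test, two-sided, adjusted p = 1.83e-04 for each, from the smallest p that 15 sign flips allow). The mean difference between partners was 7.44 ± 3.74 on the first and 11.6 ± 5.74 on the second (SD, n = 15 pairs). On the first component the D-F mean went from -14.1 ± 2.68 at T0 to 10.4 ± 4.05 at T4, and the A-C mean from -8.68 ± 4.55 to 14.5 ± 1.43 (SD, n = 3). On this component scores differed more between the first and last time point than between partners. Over all tested genes, 23.3% of the squared deviations of log2 CPM lay between time points on 4 degrees of freedom and 37.0% between the letter pairs of a time point on 10. The constant difference between letter sets held 8.10% on 1 degree of freedom and its variation between time points 11.2% on 4. The remaining 20.5% was spread over 10.

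Over all time points, 514 of 4534 tested genes, or 11.3%, differed between A-C and D-F (edgeR quasi-likelihood test with 15 blocks, Benjamini-Hochberg adjusted p under 0.05). Of these, 212 (4.68% of those tested) were higher and 302 (6.66%) lower in A-C. Scaling by library totals alone, without trimmed-mean (TMM) factors, moved the median log2 difference of all genes from 0.00 to 0.11. The split then turned to 469 higher and 193 lower, so which direction held more genes depends on the scaling. Without T1 the count was 256, and without the pair that holds T2 B it was 484. DESeq2 called 297, of which 93 were higher and 204 lower.

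Most of these differences were small and some were large, and the large ones were nearly all in 1 direction. The median size was 0.51 on the log2 scale (quartiles 0.41 and 0.65) for genes higher in A-C and 0.59 (quartiles 0.41 and 0.88) for genes lower in A-C, against 0.16 for the absolute difference of all tested genes. More than a 2-fold difference was seen in 7 genes higher in A-C and in 61 genes lower in A-C. More than a 4-fold difference was seen in 12 genes, all lower in A-C. The largest difference among genes higher in A-C was 1.43 on the log2 scale, and that among genes lower in A-C was 3.29. Of the 10 most counted genes 8 were called lower and 0 higher, with log2 differences between -0.33 and 0.05. Of the 20 most counted 13 were called lower and 2 higher, between -0.37 and 0.28, against 6.66% lower and 4.68% higher over all tested genes. Called or not, 9 of the 10 and 17 of the 20 were lower in A-C, while 50.6% of all tested genes were higher. Genes with many reads are measured more precisely, so small differences in them are called more readily, in either direction. The cause of the lean to lower values was not tested. These counts were made with TMM scaling only.

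**Figure D2:**
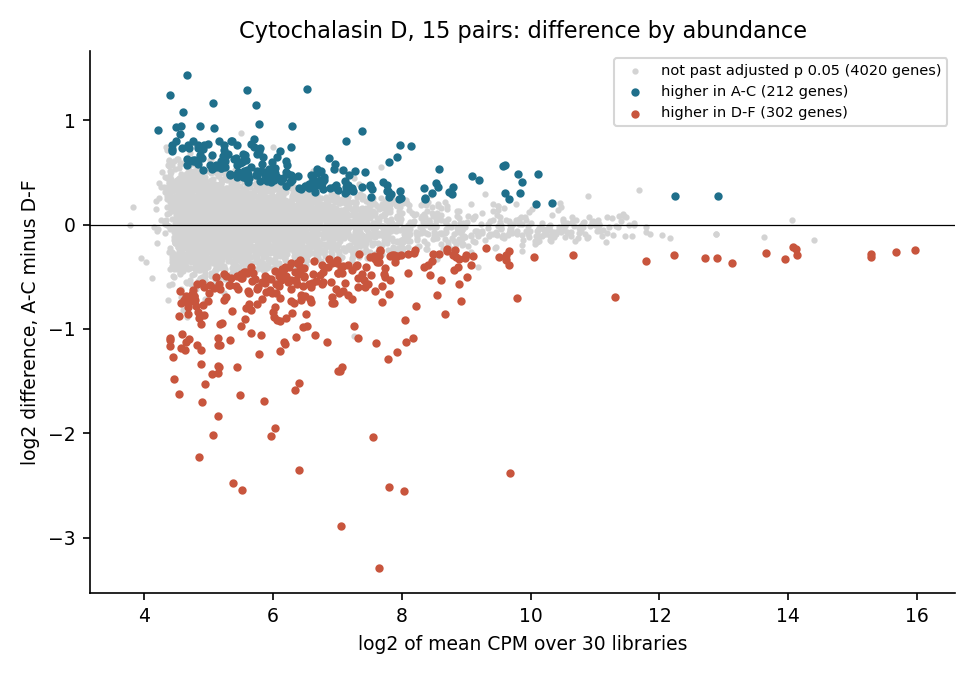
The log2 difference A-C minus D-F of each of the 4534 tested genes (y axis) against the log2 of its mean CPM over the 30 libraries (x axis), with called genes coloured by the letter set in which they were higher. The 12 genes with more than a 4-fold difference all lie below the line at 0.

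The 4 genes described next are the 2 higher and the 2 lower in A-C with the largest difference among called genes of more than median abundance that moved 1 way in at least 12 of 15 pairs. They were chosen for that difference in these same libraries. Their pooled values, and their values and p-values at single time points, therefore describe and do not add evidence. 

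NVE1806 showed the largest difference. At T0 it stood at 57.8, 59.2 and 40.3 CPM in A, B and C and at 554, 737 and 447 CPM in their partners D, E and F. At T1 the values were 34.3, 56.9 and 92.4 CPM against 925.0, 821 and 481 CPM. Every D-F library of these time points was thus above every A-C library, by several fold. At T2 they were 31.1, 23.8 and 30.7 CPM against 95.3, 208 and 180.4 CPM, and at T3 34.8, 2.87 and 30.7 CPM against 231, 81.6 and 217 CPM. At T4 they were 17.6, 17.2 and 6.25 CPM against 78.1, 258 and 187 CPM. The D-F mean was 579 ± 146.8 CPM at T0 and 742 ± 232 CPM at T1, and between 161.3 and 176.5 CPM at T2 to T4 (SD, n = 3), a course that was not tested. The log2 difference was -3.29 ± 0.16 over all pairs (SE, edgeR adjusted p = 4.73e-16), and between -4.53 and -1.45 in single pairs. It was called at each time point, from -2.55 ± 0.35 at T2 (SE, edgeR adjusted p = 3.19e-05) to -3.73 ± 0.44 at T4 (SE, edgeR adjusted p = 1.79e-06). The count behind these levels was low in A-C, with 1 to 42 reads per library, against 17 to 323 in D-F.

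NVE21090 was also lower in A-C in 15 of 15 pairs. At T0 it stood at 11.6, 59.2 and 21.97 CPM in A, B and C and at 448, 397 and 361 CPM in D, E and F. At T1 it stood at 34.3, 26.4 and 70.4 CPM against 790.4, 586 and 118 CPM, so F was far below D and E there. At the later time points A-C ran from 12.3 to 34.3 CPM and D-F from 55.7 to 142 CPM. The letter sets did not overlap at any time point, and the lowest of the 15 D-F libraries (55.7 CPM) was below the highest of the 15 A-C libraries (70.4 CPM). The log2 difference was -2.89 ± 0.24 over all pairs (SE, edgeR adjusted p = 9.70e-11). It was -3.59 ± 0.42 at T0 and -3.27 ± 0.37 at T1, and -1.93 ± 0.50 at T2 (SE, edgeR adjusted p = 5.79e-07, 2.16e-07 and 0.0181). At T4 it was -2.37 ± 0.57 and missed the threshold (SE, edgeR adjusted p = 0.0566).

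NVE4723 was higher in A-C in 15 of 15 pairs. It averaged 132 ± 98.04 CPM in A-C and 53.2 ± 46.1 CPM in D-F (SD, n = 15). The SDs reflect a wide spread between pairs: in A-C it ran from 48.5 CPM in T4 A to 367 CPM in T2 B, and in D-F from 10.9 CPM in T0 D to 177.2 CPM in T1 F. The letter sets overlapped at every time point but T3, and the difference shows within pairs. At T0 the partners stood at 61.6 and 10.9 CPM (A and D), 164.6 and 75.6 CPM (B and E) and 106.2 and 33.1 CPM (C and F). The log2 difference was 1.30 ± 0.15 over all pairs (SE, edgeR adjusted p = 1.43e-07). It was called at T0 to T3 and not at T4, where it was 0.94 ± 0.39 (SE, edgeR adjusted p = 0.343).

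NVE20068 was higher in A-C in 14 of 15 pairs. It averaged 68.5 ± 38.1 CPM in A-C and 27.8 ± 18.9 CPM in D-F (SD, n = 15). The exception was T0 B and E, at 69.5 and 85.0 CPM. The widest gap was at T1 B and E, at 156.4 and 18.9 CPM. The log2 difference was 1.29 ± 0.21 over all pairs (SE, edgeR adjusted p = 5.26e-05). It was called at T1 (1.53 ± 0.38, SE, edgeR adjusted p = 0.00980) and T2 (1.83 ± 0.44, SE, edgeR adjusted p = 0.0101), and not at T0, T3 or T4. Reads per library were few, 4 to 91 in A-C and 3 to 27 in D-F.

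**Figure D3:**
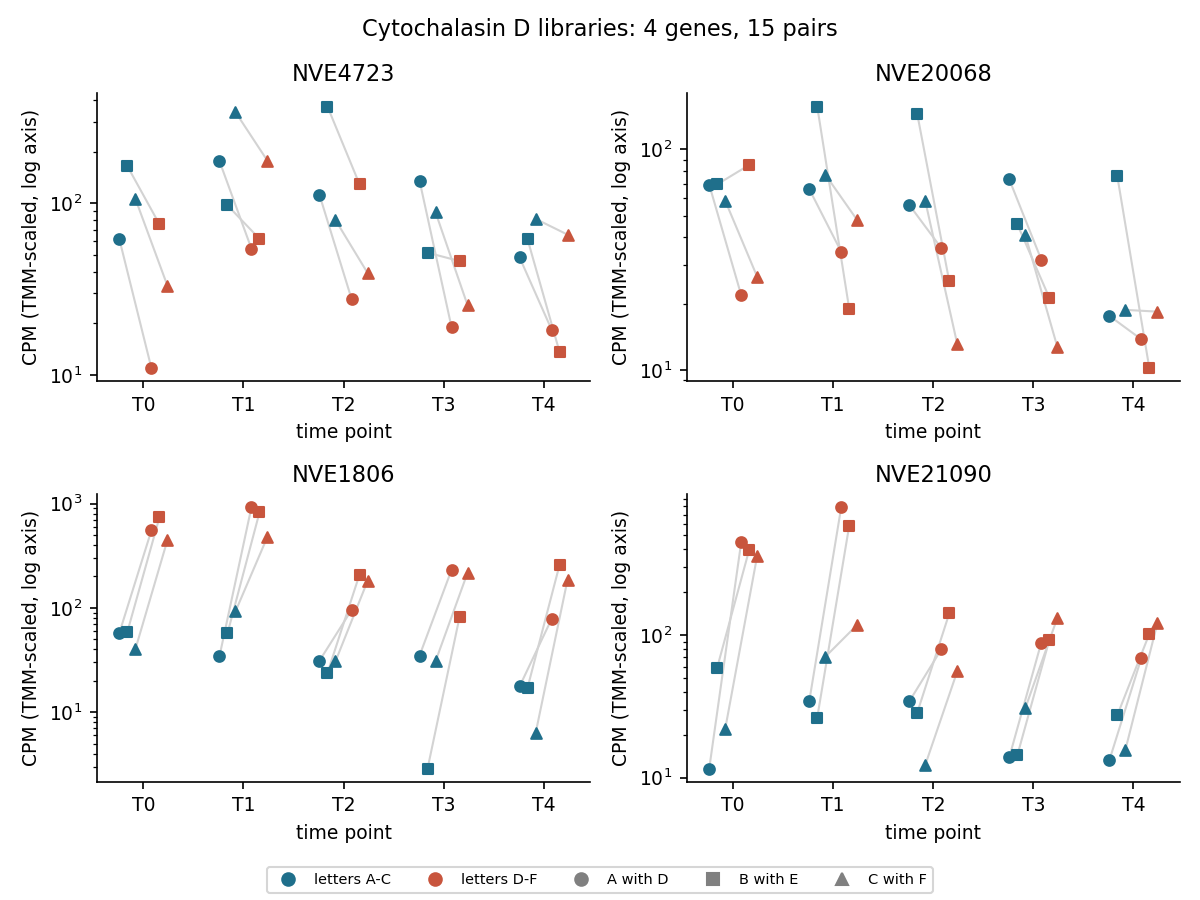
TMM-scaled CPM on a log axis of NVE4723, NVE20068, NVE1806 and NVE21090 in each of the 30 libraries by time point, with grey lines joining the 2 libraries of a pair. In NVE1806 and NVE21090 all 3 D-F libraries lie above all 3 A-C libraries at each time point. In NVE4723 the letter sets overlap at T0, T1, T2 and T4 although A-C is higher in every pair.

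No gene separated the letter sets completely: in 0 of 4534 tested genes (0%) did all 15 A-C libraries lie on 1 side of all 15 D-F libraries. Within pairs the called genes mostly moved 1 way. Of the genes called, 17 of the 212 higher and 24 of the 302 lower genes moved 1 way in all 15 pairs, which accounts for all 41 tested genes that did so. At least 12 pairs went 1 way in 254 of the 302 lower genes. The genes were called from these same 15 pairs, which itself favours pairs that move 1 way. These counts therefore describe the calls and do not add evidence. How many of all tested genes moved 1 way in at least 12 pairs was not counted. The calls could also be looked up in pairs that had no part in them. When each pair was left out in turn, between 436 and 544 genes were called from the other 14. In the pair left out, between 63.6% (T4 A and D) and 91.7% (T1 B and E) of these calls had the same sign (median 80.2%). Over all tested genes the share with the sign of the fit was 55.0% to 65.3%. The median difference in the pair left out, along the direction of the call, was 0.17 to 0.68 on the log2 scale, against a fitted median of 0.56 to 0.60.

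The 12 genes with more than a 4-fold difference, chosen by that difference, took a median of 0.0412% of reads in A-C (0.0189% to 0.171%) and 0.192% in D-F (0.0895% to 0.851%) over 15 libraries each. In D-F their share was 0.478% ± 0.0831 at T0 and 0.653% ± 0.236 at T1, and 0.171% ± 0.0241, 0.152% ± 0.0365 and 0.171% ± 0.0870 at T2, T3 and T4 (SD, n = 3). In A-C it was 0.0825% ± 0.0171 at T0, 0.114% ± 0.0583 at T1 and 0.0293% ± 0.0112 at T4. Both letter sets thus had their higher shares at T0 and T1. The median log2 difference of the 12 genes was -2.64 at T0 and, in the order of the later time points, -2.71, -2.01, -2.28 and -2.16. None of the 12 was among the 44 of 4534 tested genes (0.970%) whose difference varied between time points. With so few genes passing that test, none among 12 does not show that these differences were steady.

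At the single time points, 3 pairs each, the number of genes called differed widely. In 1 fit of the 30 libraries with a separate term for each time point, 91 genes differed at T0 (2.01% of those tested), 14 higher (0.309%) and 77 lower (1.70%) in A-C. At T1 231 differed (5.09%), with 50 (1.10%) higher and 3.99% of the tested genes lower. At T2 213 differed (4.70%), with 94 (2.07%) higher and 2.62% lower. At T3 26 differed (0.573%), 5 higher (0.110%) and 21 lower (0.463%), and at T4 17 (0.375%), 2 higher (0.0441%) and 15 lower (0.331%). The T1 and T2 counts came with the largest depth gap between the letter sets: A-C averaged 438991 reads against 387408 in D-F at T1 and 431226 against 322832 at T2, and A-C was deeper in 3 of 3 pairs at both. With all libraries thinned to 1 depth the percentages called were 2.00 at T0, 4.17 and 3.87 at the next time points, 0.563 at T3 and 0.461 at T4. Fewer calls do not mean an opposite difference. Of the 302 genes lower in A-C over all time points, between 272 (T0 and T4) and 300 (T1) were lower at each time point. Of the 212 higher genes, between 190 (T0) and 211 (T1) were higher at each time point. The median log2 difference of the lower genes went from -0.41 at T0 to -0.80 (T1), -0.60 (T2), -0.55 (T3) and -0.44 (T4). These shares come from the libraries that made the pooled calls and describe how the calls are spread over time points.

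**Figure D4:**
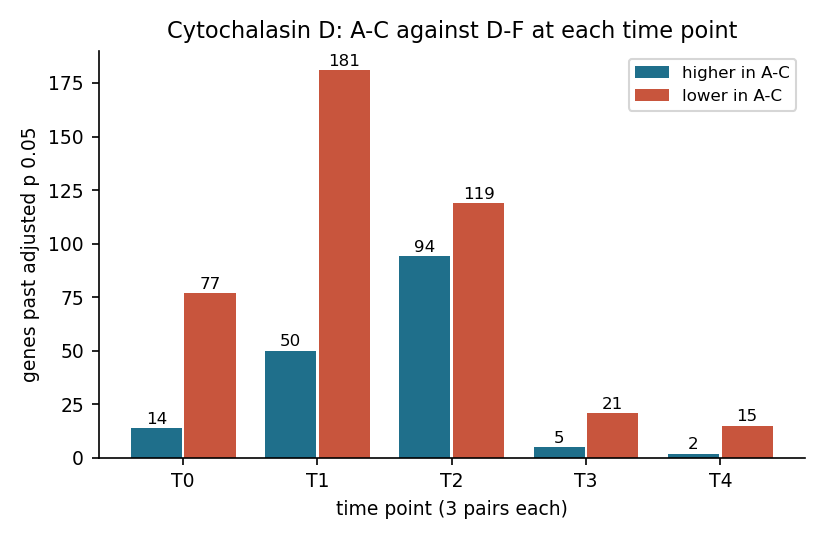
Number of genes called higher and lower in A-C at each time point (edgeR, adjusted p under 0.05, 3 pairs per time point, 1 fit of 30 libraries). T1 and T2 hold the most calls, with 231 and 213 genes, and T4 the fewest, with 17.

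In all, 418 genes were called at 1 or more time points, of which 269 were also called over all time points. A single time point called 309 of them, and 5 were called at all 5. T1 and T2 shared 64 genes, which is 27.7% of the T1 calls and 30% of the T2 calls, and all 64 had the same direction at both. Opposite calls at different time points were made for 8 genes. Leaving out 1 pair of a time point, with the filter on low counts applied anew, moved these counts by over 1.5 times in most cases. At T0 the count was 54 without A and D, 37 without B and E and 29 without C and F. At T1 it was 120 without A and D and 91 without B and E, and 217 without C and F. At T2 it was 100 without A and D, 95 without B and E, where 48 were higher and 47 lower, and 2.70% of the genes in the fit were called without C and F. At T3 it was 12, 6 and 12 without the same pairs in turn, and at T4 26 without A and D and 11 without B and E. Fitted on its own 6 libraries, T4 had 1 call and T3 had 85.

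Whether the difference between the letter sets itself varied between time points was tested with the 4 differences between the time points' terms. It did in 44 of 4534 genes, or 0.970% (edgeR F test, adjusted p under 0.05; 548 at an unadjusted p under 0.05). Without the replicate block 2 genes passed, and DESeq2 called 13 of the 2073 genes to which it gave an adjusted p. With single pairs left out the count ran from 24 to 74. It was 27 when the A-D pair of T0 was left out, 24 when its B-E pair was, 24 when its C-F pair was, 27 without T2 C and F and 28 without T3 C and F. It was 72 without T1 C and F and 74 without T4 C and F. The 44 genes were chosen for variation between time points, which itself favours mixed signs. How many of all tested genes had mixed signs was not counted. In 42 of the 44 genes the sign of the difference was not the same at every time point. The size was largest at T0 in 17 of them, 16 being lower in A-C there, and at T2 in 17, 13 being higher in A-C there. Of the 44, 9 were among the 514 genes called over all time points, which are 11.3% of the tested genes. Among the 4 genes named above, the adjusted p for variation between time points was 0.850 (NVE4723), 0.706 (NVE20068), 0.663 (NVE1806) and 0.566 (NVE21090) by edgeR.

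Genes of both directions were more often lower at T4 than at T0. Of the 212 genes higher in A-C, 35.8% had a higher mean log2 CPM at T4 than at T0, and of the 302 lower genes 41.1%, against 50.7% of all tested genes. The median change from T0 to T4 was -0.16 and -0.11 on the log2 scale in the 2 sets and 0.01 over all genes. These values have no test.

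The other treatments carry the same letters in other libraries, so their A-C minus D-F differences can be set beside those of cytochalasin D. Nothing in the sources says that a letter stands for the same condition in every treatment. The signs and contrasts below therefore compare letters only. A swapped assignment of letters in a treatment cannot be told apart from a difference between treatments. The other treatments share no library with cytochalasin D. They do share letters and time point labels, except that streptomycin has no T4 libraries, so its values average over T0 to T3. The numbers after S in the sample titles, whose meaning the labels do not give, are all higher in cytochalasin D than in the others. Treatment and number range therefore cannot be told apart in these comparisons. In 1 fit of all 84 libraries with 42 blocks, 405 of 5132 genes (7.89%) differed between A-C and D-F in cytochalasin D, 559 (10.9%) in calcium-free KSW and 18 (0.351%) in streptomycin, which had 12 pairs. Of the 405 genes, 355 or 87.7% had the same sign in calcium-free KSW, against 65.8% of all tested genes. In calcium-free KSW 107 of them were called in the same and 1 in the opposite direction. Of all 559 genes called there, 485 had the sign of the cytochalasin D difference and 74 the opposite one. In streptomycin 34.8% had the same sign, against 42.1% of all tested genes, and 0 were called in the same and 8 in the opposite direction. Of all 18 genes called in streptomycin, 2 had the sign of the cytochalasin D difference and 16 the opposite one. The median difference along the cytochalasin D direction was 0.63 on the log2 scale in cytochalasin D itself, 0.29 in calcium-free KSW and -0.08 in streptomycin. The 405 genes were chosen for the first of these values. Over all 5132 genes the same medians were 0.17, 0.10 and -0.04.

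Tested directly, the difference between letter sets was not the same in cytochalasin D and calcium-free KSW for 66 genes (1.29%), and not the same in cytochalasin D and streptomycin for 252 (4.91%; edgeR contrasts, adjusted p under 0.05). Against calcium-free KSW, the cytochalasin D difference was the larger in 38 of the 66 genes, the signs were opposite in 42, and 38 were called in cytochalasin D, 33 of these lower in A-C. Against streptomycin it was the larger in 160 of the 252 genes, and the signs were opposite in 226.

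The large differences of NVE1806 and NVE21090 were much smaller in the other treatments. The named genes were chosen for their difference in cytochalasin D, which itself favours a smaller difference elsewhere. Their contrasts and p-values therefore describe and do not add evidence. With all 84 libraries scaled together, NVE1806 had a median of 28.9 CPM in A-C and 215 CPM in D-F in cytochalasin D (n = 15 each), 20.1 and 47.0 CPM in calcium-free KSW (n = 15) and 47.1 and 41.5 CPM in streptomycin (n = 12). The A-C levels of the 3 treatments overlap, and the cytochalasin D D-F libraries (72.3 to 871 CPM) reach far above the D-F libraries of calcium-free KSW (6.60 to 85.6 CPM). Its log2 difference was -0.79 ± 0.23 in calcium-free KSW (SE, edgeR adjusted p = 0.0188), and the contrast, cytochalasin D minus calcium-free KSW, was -2.49 ± 0.31 (SE, edgeR adjusted p = 1.15e-07). In streptomycin it was 0.35 ± 0.27 (SE, edgeR adjusted p = 0.809; contrast -3.64 ± 0.34, adjusted p = 4.24e-12). NVE21090 had a log2 difference of -0.80 ± 0.30 in calcium-free KSW and -0.47 ± 0.41 in streptomycin (SE, edgeR adjusted p = 0.0728 and 0.843). The contrasts with cytochalasin D were -2.06 ± 0.40 and -2.39 ± 0.51 (SE, edgeR adjusted p = 0.00116 and 0.00169). The 2 genes higher in A-C differed from streptomycin and not detectably from calcium-free KSW. NVE4723 had a log2 difference of 0.73 ± 0.20 and NVE20068 of 0.71 ± 0.21 in calcium-free KSW (SE, edgeR adjusted p = 0.0107 and 0.0184). The contrasts with cytochalasin D there were 0.58 ± 0.27 and 0.57 ± 0.31 (SE, edgeR adjusted p = 0.400 and 0.473). In streptomycin the differences were -0.82 ± 0.36 and -1.03 ± 0.43, and the contrasts were 2.13 ± 0.40 and 2.31 ± 0.48 (SE, edgeR adjusted p = 3.20e-04 and 0.00112).

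**Figure D5:**
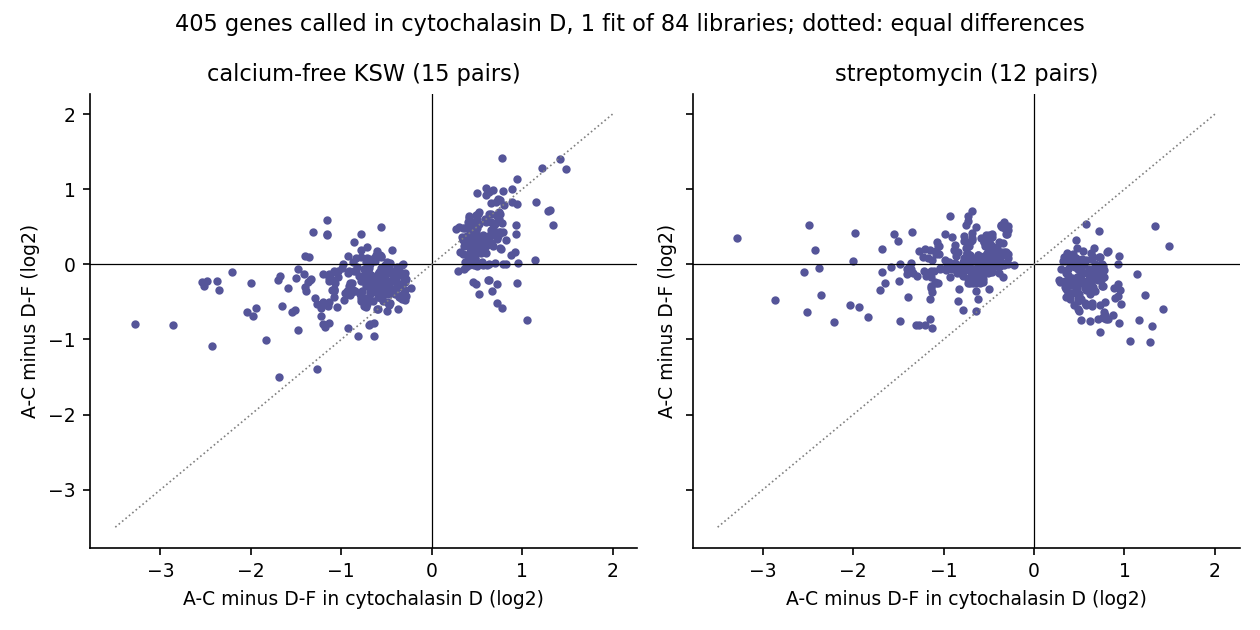
The log2 difference A-C minus D-F in calcium-free KSW (left, y axis) and streptomycin (right, y axis) of the 405 genes called in cytochalasin D in the fit of 84 libraries, against the difference in cytochalasin D (x axis). Most points share a sign with cytochalasin D on the left (87.7%) and fewer do so on the right (34.8%), and the genes with the largest negative differences lie far from the dotted line of equal differences in both. The genes were chosen for the difference on the x axis.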

How the data were processed

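The values are read counts per gene model, which the authors deposited as 1 unscaled table of 23510 genes. Per the labels' protocols, a column kit gave the RNA, and library preparation followed a published tag-based method. The submitters' processing notes name Bowtie2 without its version or role. Build, annotation, counter, strandedness and the treatment of duplicates or of reads with several matches are not given in the sources, so that near-identical or overlapping gene models may share reads. Columns were matched to samples by their titles, and 0 sample columns were left unused. No 2 columns of the 30 were identical.

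Genes were kept by filterByExpr (minimum count 10, grouped by time point), scaled by TMM and tested with edgeR 4.0.16 in R 4.3.3 (estimateDisp, glmQLFit, glmQLFTest) with Benjamini-Hochberg adjustment over all genes tested and a threshold of 0.05. The design had 15 blocks, 1 per time point and letter pair, so a pair is measured against itself. The pairing comes from the data, not from the labels: every pair's correlation of deviations from the mean of its time point and letter set was over 0.1, while from the mean of the time point alone that held for 3 of 15. Standard errors were derived from the F statistic. Alternatives used DESeq2 1.42.0, limma 3.58.1 (voom), other scalings and filters, thinned counts and left-out pairs or time points. Library values were compared by exact sign flips over pairs. Log2 CPM used a prior count of 2. Scripts were tested on simulated data. Without gene names the naming rule gave 2 identifiers in each direction. The comparison, its pairs and the tests were chosen with earlier results of these data known. Counting error limits precision where a gene has few reads.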

Additional observations from a re-analysis of the deposited data

Results flagged for a closer look

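The difference between A-C and D-F was not the same at every time point in 44 genes, by edgeR's test of the variation itself. It was not the same in cytochalasin D and calcium-free KSW in 66 genes, and not the same in cytochalasin D and streptomycin in 252, by tests of the contrasts.

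The named genes, chosen for their difference in cytochalasin D, carried such contrasts too. That choice itself favours contrasts of this kind. NVE1806 had a log2 difference further below 0 in cytochalasin D than in calcium-free KSW by -2.49 and than in streptomycin by -3.64. For NVE21090 the contrasts were -2.06 with calcium-free KSW and -2.39 with streptomycin. NVE4723 and NVE20068 differed between cytochalasin D and streptomycin by 2.13 and 2.31. No cause was tested, and treatment and library number range cannot be told apart. Whether the letters stand for the same condition in each treatment is not known, and streptomycin has no T4 libraries.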

How the results depend on the processing

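In 29 alternatives each, the named genes kept their direction and stayed past the threshold: NVE1806 ran from -3.45 to -3.14 on the log2 scale, NVE21090 from -3.13 to -2.64, NVE20068 from 1.13 to 1.52 and NVE4723 from 1.22 to 1.43 (highest edgeR, DESeq2 or limma adjusted p = 0.00239). These genes were chosen for large differences in the same libraries, so their steadiness was likely from the start and adds no evidence. The 514 pooled calls became 297 by DESeq2 and 256 without T1, and 436 to 544 with 1 pair left out. With no replicate block they were 429, the percentages of genes in the fit called at T0 to T4 were 0.706, 2.49, 0.926, 0.243 and 0.199, variation between time points 0.0441% and the contrast with calcium-free KSW 42 genes. The third principal component then kept its difference of 4.88 with a permutation adjusted p of 0.0782. DESeq2 called 33, 94, 87, 15 and 10 genes at T0 to T4 and 13 for variation, which is 0.728%, 2.07%, 1.92%, 0.331%, 0.221% and 0.287% of the genes in the fit, and 40 genes for the contrast with calcium-free KSW. It gave an adjusted p to 1458, 3743, 1458, 1809, 4534 and 2073 of the 4534 genes, and of these it called 2.26%, 2.51%, 5.97%, 0.829%, 0.221% and 0.627%. Its counts were thus lower than those of edgeR at every time point, while its shares of the genes with an adjusted p were higher at T0, T2 and T3. With no filter on low counts, more genes were called in a larger table: 42 in place of 26 at T3 (0.186% of 22600), 49 in place of 17 at T4 (0.217%), 0.504% of 22600 in place of 44 of 4534 genes for variation, and 108 in place of 66 for that contrast. The 252 genes of the contrast with streptomycin then became 209, of which 131 were above and 78 below 0. Fitted alone, T3 had 4.2% called and T4 0.0507%. With 1 pair left out the percentages were 0.582 to 1.08 at T0, 1.87 to 4.49 at T1, 1.94 to 2.70 at T2, 0.121 to 0.241 at T3, 0.219 to 0.517 at T4 and 0.481 to 1.51 for variation, the last chosen after seeing the data. Each such fit applied the filter on low counts anew and so tested 4836 to 5031 genes in place of 4534, and some counts were higher than with all pairs. The cause of these shifts was not tested. Low counts limit genes with few reads.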
